A study of Mus musculus with 2 samples.

Results

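The miRNA genes Mir375, Mir7-1, Mir7-2, Mir7b, Mir182, Mir183 and Mir96 make up 3 families linked to endocrine and sensory cells: miR-375, the miR-7 loci and the miR-183 cluster. They were chosen by name, as 7 of the 2202 miRNA genes counted in small RNA libraries from mouse adrenal gland. The tissue came from 2 male B6CASTF1/J mice aged 4 days, a cross of the laboratory strain C57BL/6J with the wild-derived strain CAST/EiJ. There was 1 group, with no treatment, mutant or second tissue named in the labels. Replicate 1 came from male 3 and replicate 2 from male 4, with 1 library each, although both carried 1 donor label. Differences between the libraries can therefore come from the animal, the dissection or the library, which cannot be told apart.

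MicroRNAs are short RNAs that lead the silencing complex to messenger RNAs, chiefly through the seed, bases 2 to 8 of the mature form. miR-375 is enriched in pancreatic islets and other endocrine cells, and in islets it limits insulin secretion. miR-7 is abundant in neuroendocrine organs such as the pituitary, the hypothalamus and the islets, and in brain it is bound by the circular RNA Cdr1as. The miR-183 cluster is transcribed as a single primary transcript and is best known from hair cells, photoreceptors and other sensory neurons. In the adrenal gland, neuroendocrine cells are the chromaffin cells of the medulla, which release catecholamines, while the cortex makes steroids.

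The mature sequences are shown to compare the seeds, and because a read that matches 2 loci could not be counted for either. The miR-7 loci are grouped by a shared seed, the miR-183 cluster by its locus, and each group is called a family here. Capitals mark the seed, and sequences run 5′ to 3′ as given by RefSeq for build GRCm38.p6. All 7 genes matched that table. It lists only the 5′ arm of Mir375, and no seed of Mir375 is compared here.

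miR-7a-5p, from Mir7-1 and Mir7-2: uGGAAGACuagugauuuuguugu

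miR-7b-5p, from Mir7b: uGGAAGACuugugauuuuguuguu

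miR-183-5p, from Mir183: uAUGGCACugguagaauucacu

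miR-96-5p, from Mir96: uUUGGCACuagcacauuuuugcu

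miR-182-5p, from Mir182: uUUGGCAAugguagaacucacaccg

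The miR-7 forms had 1 seed between them, GGAAGAC, and no other mature miRNA of the table had it. Positions are counted from 1 at the 5′ end of the mature form. From miR-7a-5p to miR-7b-5p the only change in the 23 bases compared was A10U, outside the seed. The seeds within the miR-183 cluster were close but not the same. From miR-183-5p to miR-96-5p the seed changed by A2U alone, and from miR-96-5p to miR-182-5p by C8A alone. The seed of miR-96-5p was also that of miR-1271-5p, whereas those of miR-182-5p and miR-183-5p occurred in no other mature form of the table.

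The hairpins of the 2 loci for miR-7a and of Mir7b show which reads can be placed. Capitals mark the mature forms of both arms as listed by RefSeq. For Mir375 RefSeq lists only the 5′ arm, so the mature form of its other arm is left in lower case.

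Mir7-1 hairpin: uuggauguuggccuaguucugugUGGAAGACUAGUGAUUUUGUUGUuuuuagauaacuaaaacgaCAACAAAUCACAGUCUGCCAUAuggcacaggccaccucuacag

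Mir7-2 hairpin: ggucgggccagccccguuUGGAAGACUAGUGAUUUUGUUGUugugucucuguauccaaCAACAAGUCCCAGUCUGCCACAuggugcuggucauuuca

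Mir7b hairpin: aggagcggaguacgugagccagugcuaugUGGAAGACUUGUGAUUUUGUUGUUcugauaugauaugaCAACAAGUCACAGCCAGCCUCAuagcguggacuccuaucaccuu

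Mir375 hairpin: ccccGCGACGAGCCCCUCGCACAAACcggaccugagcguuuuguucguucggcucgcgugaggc

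Mir7-1 and Mir7-2 shared a run of 24 bases, which held all of the 23 bases of miR-7a-5p, so a read within that run fits both loci. Mir7b shared at most 14 bases in a row with either of them. The longest run that Mir375, Mir182, Mir183 or Mir96 shared with any other mouse hairpin of the table was 10 bases. Counts belong to the whole precursor, so those of Mir375 cover miR-375-5p, in capitals above, and miR-375-3p without telling them apart. The Mir375 hairpin was rich in G and C (67.2%, against a median of 51.7% over 1005 hairpins). The reference is C57BL/6J sequence, and reads of CAST/EiJ alleles were not told apart here.

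The genes lie on 5 chromosomes, in positions given on mm10 from GENCODE M21. Mir375 (ENSMUSG00000065616.3) lies on the minus strand of chromosome 1 at 74900658 to 74900721, in no annotated gene, 1350 bases from Cfap65 and 7515 bases from Cryba2. Mir7-1 (ENSMUSG00000065434.1, chromosome 13, 58392779 to 58392886, minus strand) lies in an intron of Hnrnpk, which encodes an RNA-binding protein, on the same strand. Mir7-2 (ENSMUSG00000065609.1, chromosome 7, 78888277 to 78888373, plus strand) and Mir7b (ENSMUSG00000065491.1, chromosome 17, 56242988 to 56243098, plus strand) overlap no annotated gene. The cluster lies between Nrf1 and Ube2h on the minus strand of chromosome 6 and spans 3820 bases. In the direction of transcription it runs from Mir183 (ENSMUSG00000065619.2, 30169668 to 30169737) to Mir96 (ENSMUSG00000065586.1, 30169446 to 30169551) after a gap of 116 bases. Mir182 (ENSMUSG00000076361.1, 30165918 to 30165992) follows after 3453 bases.

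The libraries held 3961630 sense-strand miRNA counts in replicate 1 and 1686822 in replicate 2, so replicate 1 was read more deeply. Levels are given as CPM, the counts scaled to a total of 1000000. A read covers about the whole of a mature miRNA, so no scaling by length was applied. Intervals are exact 95% Clopper-Pearson intervals within a library. Reads are not independent molecules, so intervals cover counting error only. All 7 genes had at least 10 counts in both libraries, as had 340 of the 2202 genes.

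Mir375 was by far the most abundant of the 7. It had 123322 counts, or 31129 CPM (30958 to 31301), in replicate 1 and 71483 counts, or 42377 CPM (42074 to 42682), in replicate 2. It ranked 9 among all miRNA genes in replicate 1 and 5 in replicate 2. Ranks here and below rest on reads placed at 1 locus only. Genes that share a mature form with another locus can rank too low, by an amount that was not tested. Mir375 was 1.36-fold lower in replicate 1 (95% interval 1.35 to 1.37), a log2 ratio of replicate 1 over replicate 2 of -0.44. This exceeded counting error, but 56.2% of the 404 genes tested had a larger difference in either direction. The size also depended on the scaling. With all reads of the library as the total, which raised the median gene by 0.386, the log2 ratio of Mir375 was -0.06. Mir375 made up 84.3% of the counts of the 7 genes in replicate 1 and 90.1% in replicate 2.

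Mir7b was the next gene in both libraries. It had 18106 counts, or 4570 CPM (4504 to 4637), in replicate 1 and 6332 counts, or 3754 CPM (3662 to 3847), in replicate 2. Its mean of 4162 ± 577 CPM (SD, n = 2) placed it at rank 42 of all miRNA genes. Mir375 exceeded it 6.81-fold in replicate 1 and 11.3-fold in replicate 2, so the balance of these endocrine miRNAs differed between the libraries by more than counting error.

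Mir7-1, the locus within Hnrnpk, had nearly equal CPM in the libraries. It had 1830 counts, or 462 CPM (441 to 484), in replicate 1 and 796 counts, or 472 CPM (440 to 506), in replicate 2. Its log2 ratio of -0.03 was not distinguishable from 0 (adjusted p = 0.70, exact binomial test with Benjamini-Hochberg adjustment over 404 genes). The sign turned under other scalings of the libraries, to 0.08 with the trimmed mean of M-values (TMM), which raised the median gene by 0.107. With all reads of the library as the total, which raised the median gene by 0.386, it was 0.36 (adjusted p = 8.2e-09, exact binomial test). The near equality of Mir7-1 thus depends on the total chosen. Mir7-2, which makes the same miR-7a-5p, was the lowest of the miR-7 loci. It had 545 counts, or 138 CPM (126 to 150), in replicate 1 and 113 counts, or 67.0 CPM (55.2 to 80.5), in replicate 2. These intervals did not overlap, while those of Mir7-1 did.

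**Figure D1:**
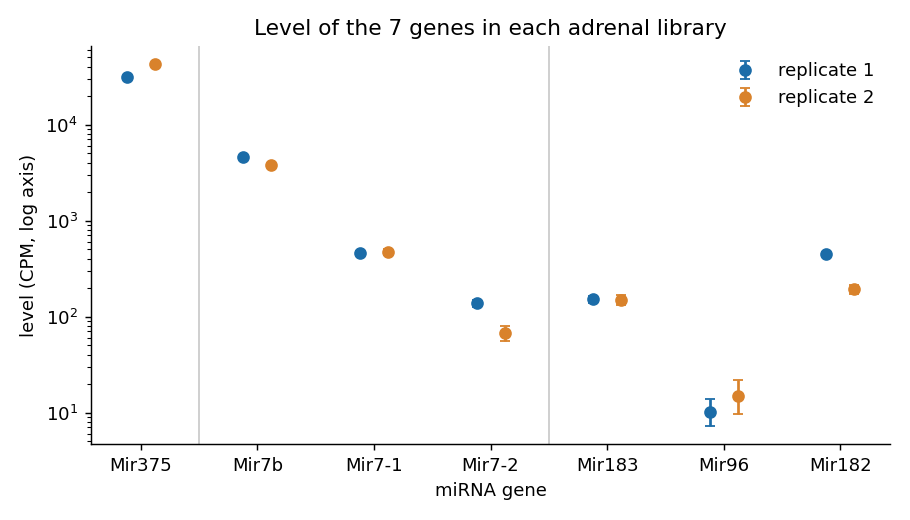
Level of each gene in CPM on a log axis, with replicate 1 left of replicate 2; bars are exact 95% counting intervals, and lines part the 3 families. Mir375 stands at 31129 CPM in replicate 1 and 42377 CPM in replicate 2, and Mir96 lies near 10 CPM with the widest intervals.

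Within the miR-7 loci the order was Mir7b, Mir7-1 and then Mir7-2 in both libraries. Mir7b held 88.4% of their counts in replicate 1 (88.0 to 88.8%) and 87.4% in replicate 2 (86.7 to 88.2%). Mir7-1 held 8.94% in replicate 1 (8.55 to 9.33%) and 11.0% in replicate 2 (10.3 to 11.7%). Mir7-2 held 2.66% in replicate 1 (2.44 to 2.89%) and 1.56% in replicate 2 (1.29 to 1.87%). The ratio of Mir7-1 to Mir7-2 was thus 3.36 in replicate 1 (3.05 to 3.70) and 7.04 in replicate 2 (5.78 to 8.66).

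The lead of Mir7b holds for reads placed at 1 locus only. Reads of miR-7a-5p that fit both Mir7-1 and Mir7-2 belong to the reads aligned to several loci, which numbered 3176275 in replicate 1 and 1684373 in replicate 2. How many of them were miR-7a-5p was not tested, so the levels of Mir7-1 and Mir7-2 are uncertain and may be too low. Their counts can come from the 3′ arms, miR-7a-1-3p and miR-7a-2-3p, or from reads that run past the shared bases. In sum the miR-7 loci had 5170 CPM in replicate 1 and 4293 CPM in replicate 2.

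The miR-183 cluster was far less abundant, with 608 CPM in replicate 1 and 356 CPM in replicate 2 over its 3 genes. Mir182, whose product targets Foxo1 in several cell types, had 1771 counts, or 447 CPM (426 to 468), in replicate 1 and 323 counts, or 191 CPM (171 to 214), in replicate 2. Mir183 had 597 counts, or 151 CPM (139 to 163), in replicate 1 and 252 counts, or 149 CPM (132 to 169), in replicate 2. Mir96, in whose seed mutations cause hearing loss in mice and humans, had 40 counts, or 10.1 CPM (7.21 to 13.7), in replicate 1 and 25 counts, or 14.8 CPM (9.59 to 21.9), in replicate 2.

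Mir182 thus lay higher in replicate 1, while the intervals of Mir183 and of Mir96 overlapped between the libraries. The log2 ratio of Mir183 was 0.01 and turned to -0.01 when marker genes of other cell types were left out of the totals, an alternative chosen after seeing the data. With all reads of the library as the total it was 0.40 (adjusted p = 0.000367, exact binomial test), so its near equality depends on the total chosen. The make-up of the cluster differed between the libraries. Mir182 held 73.5% of its counts in replicate 1 (71.7 to 75.3%) and 53.8% in replicate 2 (49.8 to 57.9%). Mir183 held 24.8% in replicate 1 (23.1 to 26.6%) and 42.0% in replicate 2 (38.02 to 46.1%). Mir96 held 1.66% in replicate 1 (1.19 to 2.26%) and 4.17% in replicate 2 (2.71 to 6.09%). These shares do not depend on how the libraries are scaled.

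**Figure D2:**
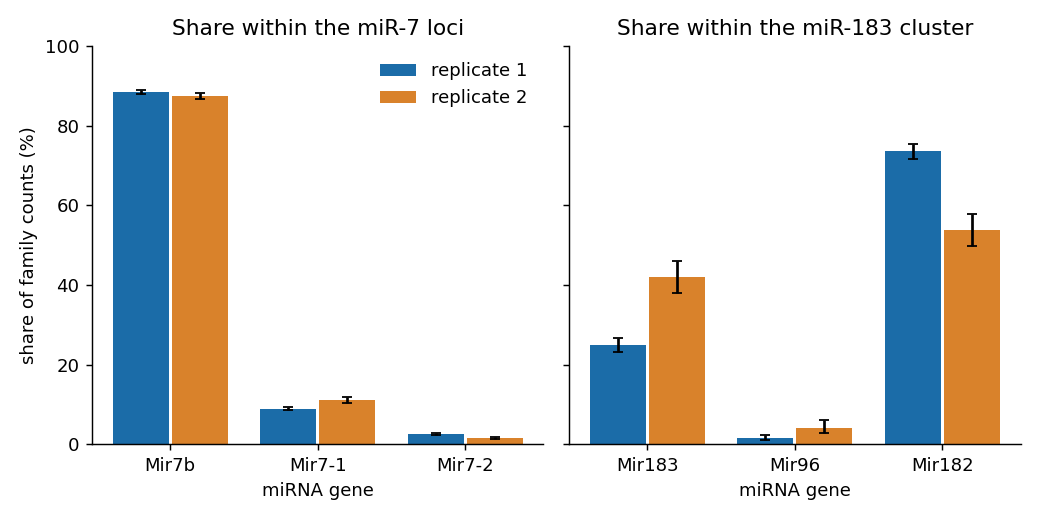
Share of each gene in the counts of its family, in percent, with replicate 1 left of replicate 2 and exact 95% counting intervals. Mir7b holds 88.4% in replicate 1 and 87.4% in replicate 2, whereas Mir182 holds 73.5% in replicate 1 and 53.8% in replicate 2.

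Mir182 and Mir183 lie 3675 bases apart, and the ratio of Mir182 to Mir183 was 2.97 in replicate 1 (2.70 to 3.26) and 1.28 in replicate 2 (1.08 to 1.52). Their log2 ratios between the libraries differed by 1.21. For comparison, the same difference was taken for the other pairs of miRNA genes on 1 strand within 5000 bases and with at least 100 counts in each library. Of 193 such pairs, 20 (10.4%) differed by more, and the median difference was 0.41. Pairs from 1 cluster share genes and are not independent, and this set of pairs was chosen after the values had been seen.

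**Figure D3:**
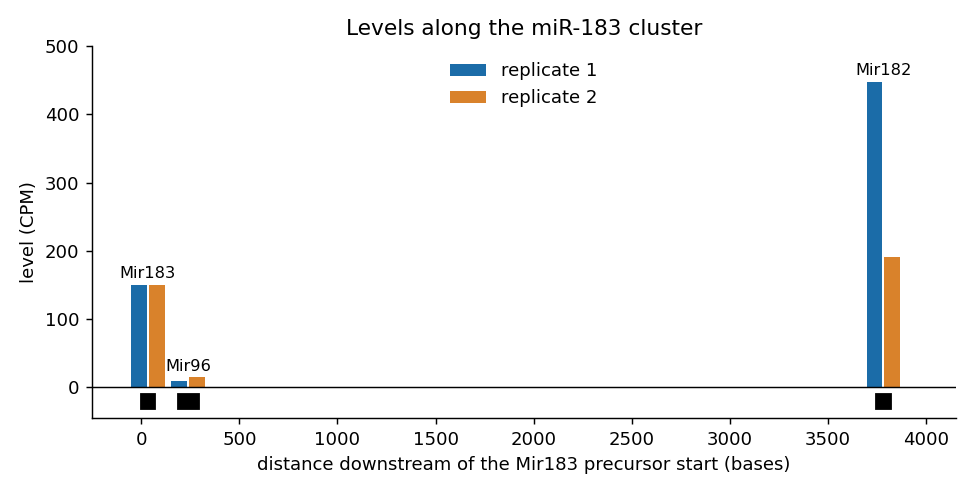
Levels in CPM along the miR-183 cluster, by distance in bases from the start of the Mir183 precursor, with replicate 1 left of replicate 2; black boxes mark the precursors to scale. Mir183 stands at 151 and 149 CPM, Mir96 at 10.1 and 14.8 CPM, and Mir182 at 447 and 191 CPM, each in replicate 1 and then replicate 2.

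The libraries were compared gene by gene with a two-sided exact binomial test of the counts against the ratio of library totals. It compares these libraries and no conditions, and the differences have no replicate check. A gene was called different with an adjusted p under 0.05 and a log2 ratio above 1 or below -1. By this rule 2 of the 7 genes were called, beside 74 of the 404 genes tested (18.3%). Both were higher in replicate 1, as were 8.66% of all genes tested, and none was lower in replicate 1, against 9.65% of all. With 7 genes, nothing is read from the distance between these shares.

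The called genes were Mir182, with a 2.33-fold higher level in replicate 1 (95% interval 2.07 to 2.64, log2 ratio 1.22, adjusted p = 2.02e-52, exact binomial test), and Mir7-2. Mir7-2 was 2.05-fold higher in replicate 1 (1.67 to 2.54, log2 ratio 1.03, adjusted p = 2.53e-13, exact binomial test). Mir7-2 lay close to the threshold, and with 5 CPM added in place of 0.5 its log2 ratio was 0.99 and the call was lost. Among the genes tested, 17.3% had a larger difference than Mir182 and 20.8% a larger one than Mir7-2.

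Of the other 5 genes, Mir375 and Mir7b differed beyond counting error but by less than the size required. Mir7b was 1.22-fold higher in replicate 1 (1.18 to 1.25). Mir96 was 1.47-fold lower in replicate 1, with an interval from 2.48-fold lower to 1.17-fold higher, so no difference was detectable at its depth (adjusted p = 0.195, exact binomial test). The median log2 ratio of the 7 genes was 0.01, against 0.05 over the genes tested, and the median size was 0.44 against 0.50. Over the 340 genes detected, the biological coefficient of variation between these 2 libraries was 0.394 (edgeR common dispersion 0.155).

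**Figure D4:**
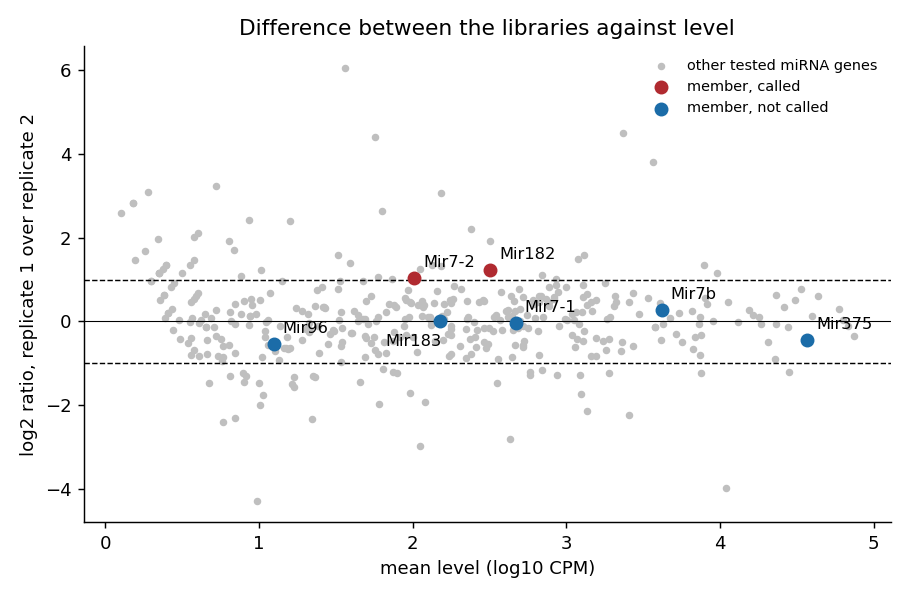
Log2 ratio of replicate 1 over replicate 2 against mean level in log10 CPM for the 404 tested miRNA genes; dashed lines mark ratios of 1 and -1. Mir182 and Mir7-2 lie above the upper line, and the other 5 members lie between the lines among the grey points.

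Other genes of nearly the same level in both libraries were sought by distance over log2(CPM + 0.5) in the 2 libraries. Mir143 and Mir411 lay nearest to Mir375, at distances of 0.45 and 0.61. Mir17 and Mir27b lay nearest to Mir7b (0.13 and 0.26), and Mir497 and Mir376b nearest to Mir182 (0.50 and 0.51). With 2 libraries this measure says little beyond the level itself.

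A list of 22 other neuroendocrine and neuronal miRNA genes gave a setting for the label. The list had 14 genes detected and a summed level of 3579 CPM in replicate 1 and 3542 CPM in replicate 2, less than Mir7b alone. Mir149 led it with 1010 CPM in replicate 1 and 1353 CPM in replicate 2. By mean level Mir137, a regulator of neuronal maturation, came next with 977 CPM in replicate 1 and 678 CPM in replicate 2, although Mir132 lay above it in replicate 2. The brain miRNAs of the Mir9 and Mir124a loci had 0 to 4 counts in either library. Loci of each of these groups make the same mature form, so their reads would fit several loci and these counts do not show absence.

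**Figure D5:**
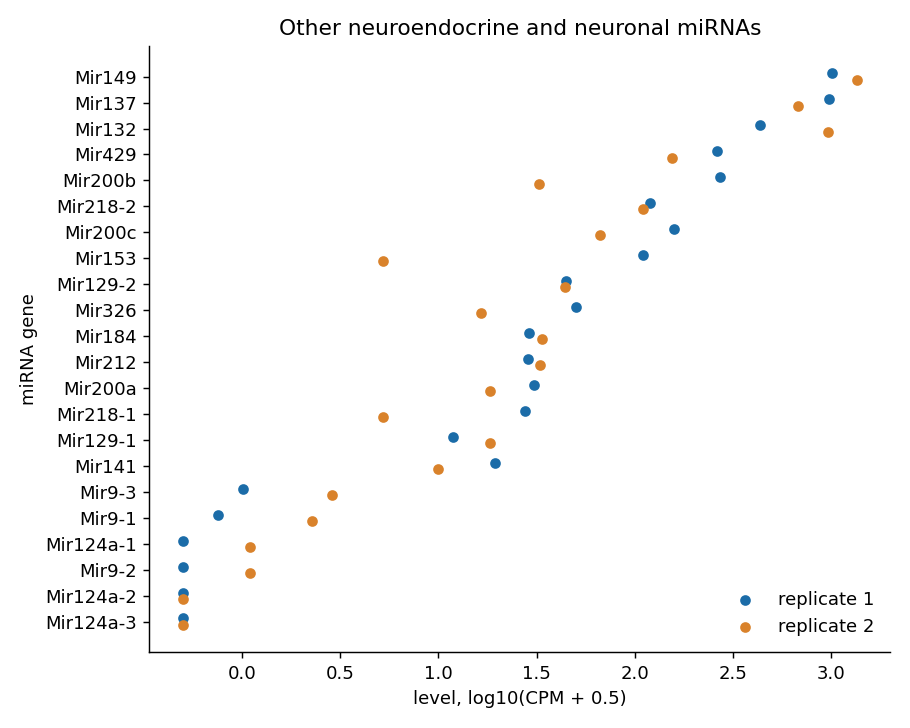
Level of the 22 other neuroendocrine and neuronal miRNA genes as log10(CPM + 0.5), with a point for each library. Mir149 is highest in both libraries, Mir153 and Mir200b lie far higher in replicate 1 than in replicate 2, and the Mir9 and Mir124a loci lie at the low end.

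Of the 16 genes of this list that were tested, 5 (31.2%) were called higher in replicate 1, against 8.66% of all genes tested, and 1 (6.25%) was called lower, against 9.65% of all. In all 11 of the 16 had a positive log2 ratio, and the median was 0.63 against 0.05 over all genes tested. The list includes the miR-200 family (Mir141, Mir200a, Mir200b, Mir200c and Mir429), which marks epithelium as well as endocrine cells. This family had 741 CPM in replicate 1 and 279 CPM in replicate 2. All 5 of its genes lay above the list median, so leaving them out could only lower it. Over the other 11 genes the median was 0.01, with 3 called higher and 1 called lower, against 8.66% and 9.65% of all genes tested. This division was made after the values had been seen. The genes called higher were Mir153, which lies in the secretory granule gene Ptprn2, with 110 CPM in replicate 1 and 4.74 CPM in replicate 2, and Mir218-1, Mir326 and the miR-200 genes Mir200b and Mir200c. Mir218-1 is 1 of the Slit-hosted loci of miR-218, and its partner Mir218-2 had 119 CPM in replicate 1 and 110 CPM in replicate 2. Reads that fit both of these loci would be counted for neither, and their number was not tested. Mir132, which is induced by CREB signalling, was the gene called lower, with 434 CPM in replicate 1 and 965 CPM in replicate 2. Of the 7 genes, Mir182 and Mir7-2 were called higher in replicate 1, as were 8.66% of all genes tested. Mir375, Mir7b, Mir7-1, Mir183 and Mir96 were not called, and whether any of the 7 genes vary with this list was not tested. The list was chosen with earlier results of these data known, and its values are a description.

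Markers of other cells also differed between the libraries. The hepatocyte miRNA Mir122 had 1299 CPM in replicate 1 and 20602 CPM in replicate 2, and 3 erythroid genes summed to 7248 CPM in replicate 1 and 595 CPM in replicate 2. Of the erythroid sum, Mir451a gave 6842 CPM in replicate 1 and 491 CPM in replicate 2. Erythroid Mir486 went the other way without being called, with 12.4 CPM in replicate 1 and 19.6 CPM in replicate 2. The epithelial genes Mir203, Mir205 and Mir31 summed to 685 CPM in replicate 1 and 1412 CPM in replicate 2. Most of that gap was Mir31, with 108 CPM in replicate 1 and 755 CPM in replicate 2, and the miR-200 family given above went the other way. The 8 striated muscle genes summed to 1141 CPM in replicate 1 and 2696 CPM in replicate 2, of which Mir206 gave 1130 CPM in replicate 1 and 2646 CPM in replicate 2. The Mir1a and Mir133a loci had 0 to 2 counts, and as they too make a mature form from several loci, these counts do not show absence. Leukocyte genes summed to 858 CPM in replicate 1 and 1338 CPM in replicate 2, although Mir155 had 118 CPM in replicate 1 and 69.4 CPM in replicate 2. Kidney genes summed to 241 CPM in replicate 1 and 379 CPM in replicate 2 and moved both ways. Mir215 and Mir194-1 were called higher and Mir192 and Mir194-2 called lower in replicate 1, with Mir215 at 72.4 CPM in replicate 1 and 0.593 CPM in replicate 2. How many reads fit both Mir194 loci, and so were counted for neither, was not tested. The pancreatic acinar genes Mir216a, Mir216b and Mir217 summed to 0.505 CPM in replicate 1 and 20.7 CPM in replicate 2. In replicate 1 Mir216a and Mir216b were at 0 counts, for which a level of up to 3 counts, or 0.757 CPM, was allowed each. This is a set floor and no Clopper-Pearson limit. Endothelial Mir126a had 65222 CPM in replicate 1 and 83391 CPM in replicate 2.

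Genes linked to the adrenal cortex (Mir202, Mir21a, Mir132 and Mir212) summed to 17526 CPM in replicate 1 and 40644 CPM in replicate 2, nearly all of it Mir21a, which many cell types express. No miRNA of these lists marks the adrenal gland alone, so the labelled tissue was not checked beyond this. The part of other tissue in the levels of the 7 genes was not tested. In bulk tissue, fewer cells of a type and less RNA per cell cannot be told apart. In an alternative chosen after seeing the data, the marker genes of these cell types were left out of the totals. Endothelial Mir126a and the genes linked to the cortex were kept in. Mir182 and Mir7-2 were still called, at log2 ratios of 1.20 and 1.01. Only the totals changed, which moved the log2 ratio of the median gene by -0.0228. The counts of the 7 genes stayed the same, so this cannot show whether other tissue contributed to them.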

How the data were processed

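Small RNA under 30 nucleotides, per the labels, was sequenced from adrenal glands of 2 mice. The authors deposited whole-number read counts per miRNA gene, made on mm10 with annotation M21 per the deposited file lists. The aligner, trimming and read filters are not given in the sources used here. The tables have 3 count columns, for reads of either strand and of each strand, and 4 summary rows that name no gene. These rows held 66.3% of the reads of replicate 1 and 74.3% of those of replicate 2 and were left out of totals. The third column of each table was used as the sense strand.

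CPM, exact binomial tests (where either library reached 10 counts, with log2 ratios on CPM + 0.5) and intervals were computed in Python 3.11.15 with scipy 1.17.1. With 1 group no edgeR quasi-likelihood comparison could be made. TMM factors and the dispersion test came from edgeR 4.0.16, and another scaling from DESeq2 1.42.0, in R 4.3.3. Symbols came from GENCODE M21, sequences from RefSeq. The 7 genes are all named. Other genes were named as the 2 nearest in level or as members of the lists. Members and lists were chosen with earlier results of these data known. The labels do not state separate litters, and p-values measure only counting error between these libraries.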

Additional observations from a re-analysis of the deposited data

How the results depend on the processing

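Of 115 alternatives other than leaving out a library, 99 kept the direction and side of the threshold, kept the number of called members, or stayed within the spread between the libraries. These include the shares within a family in the either-strand column, which could hardly change because the 7 genes had almost no opposite-strand counts. Mean levels could also hardly move under TMM or DESeq2 scaling, whose factors (0.964 in replicate 1 and 1.04 in replicate 2) nearly cancel in a mean. The log2 ratios of edgeR's exact test used the same library totals, so their direction was set. The count of 99 is therefore no measure of robustness. TMM and DESeq2 scaling raised the log2 ratio of replicate 1 over replicate 2 of the median gene by 0.107, and all reads of the library as the total raised it by 0.386, so Mir7-1 turned from -0.031 to 0.0762 under TMM, 0.0764 under DESeq2 scaling and 0.36 over all reads. Mir183 turned from 0.0125 to -0.0103 without marker genes of other cell types in the totals, and was 0.396 over all reads. Over all reads Mir375 was at -0.0573. Called members numbered 2 under TMM and DESeq2 scaling (19.6% of all genes tested were called), all reads (20.3%), totals without marker genes (17.6%), the either-strand column (18.9%), no filter on low counts (9.91%) and a log2 ratio above 0.58 (32.7%). They numbered 1 with CPM + 5 (Mir182; 14.1% of all) and 4 at any size of the log2 ratio (62.1%). edgeR's exact test with the common dispersion called 0 members (0 with an unadjusted p under 0.05) and 1.98% of all genes. By that test Mir182 had an adjusted p of 0.975. Its dispersion came from the same 2 libraries, so it sets a gene against the typical gap between them. No member stood out from that gap, but without further libraries this cannot settle the calls. The either-strand column, whose totals are smaller, gave the miR-7 loci 5401 CPM instead of 4731 CPM; the 7 genes themselves had 1 opposite-strand count in all. With either library left out, a level cannot move by more than its SD: the sum of the 7 genes ranged from 36907 to 47026 CPM, Mir375 from 31129 to 42377, the miR-7 loci from 4293 to 5170 and the cluster from 356 to 608. No paired analysis was possible because there is 1 group. Depth limits Mir96 most, with 40 and 25 counts.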
